A study of Mus musculus with 6 samples.

Results

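The genes described here encode glycosyltransferases and carbohydrate sulfotransferases, the Golgi enzymes that build and sulfate the sugar chains of glycoproteins, glycolipids and proteoglycans. They were chosen by name, as the Galnt, B3gnt, B3galt, B4galt, St3gal, St6gal, St8sia, Fut, Mgat, Gcnt and Chst families and Ust, which gave 98 of the 23366 genes in the count table. RNA was sequenced from CD4+ effector T cells of FVB/N background that had been transferred into Rag-deficient mice, hosts that lack their own T and B lymphocytes, and sorted from their mesenteric lymph nodes 6 weeks later. The sort was on rhodamine 123 (Rh123), a dye that the transporter Mdr1 pumps out: Rh123-low cells are named Mdr1+, Rh123-high cells Mdr1-, and each fraction has 3 libraries. Whether a replicate is 1 mouse or a pool is not in the labels, and the p-values therefore measure only the spread between these libraries, which may be technical. The groups are thus defined by dye content and not by a gene deletion, and the labels give no age for the animals.

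A sugar chain is assembled in order. Mucin-type O-glycans start when a Galnt enzyme adds N-acetylgalactosamine (GalNAc) to serine or threonine, and are then extended, branched and capped. N-glycans are trimmed and then branched by the Mgat enzymes, B4galt and B3gnt enzymes lengthen the arms, and sialyltransferases and fucosyltransferases cap them. In T cells these caps set which selectins, galectins and sialic acid-binding lectins the cell can bind, and chondroitin and heparan sulfate chains on proteoglycans bind chemokines and growth factors according to where they are sulfated.

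Values are CPM, the counts of a gene scaled to library size, with TMM factors, which assume that most genes do not differ. Fold changes are Mdr1+ over Mdr1- from edgeR's quasi-likelihood test, given as log2 value ± standard error, with p adjusted by Benjamini-Hochberg across the 10897 genes tested and a threshold of 0.05. The replicate numbers paired the libraries in the data, so a second fit with the number as a block is given wherever it changes a call. Of the 98 members 58 passed the filter on low counts and were tested, and counts of members below are over these 58.

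Libraries held 2220691 to 20771456 counts in genes, and the shallowest, Mdr1+ replicate 3, stood alone on principal component 1 (59.2% of the variance). One count in it is worth 0.450 CPM before scaling. Abcb1a, which encodes the transporter, was higher in Mdr1+ cells (177, 132 and 178 against 72.9, 42.0 and 73.4 CPM in replicates 1, 2 and 3). All 14 listed cell cycle genes were lower, with a summed level of 600 to 714 CPM in Mdr1+ and 2425 to 3700 CPM in Mdr1- libraries. The 8 T cell markers summed to 3893 to 4885 and 4067 to 4487 CPM, and 0 of 8 was called by edgeR in either fit. Of 9 myeloid markers the summed level was 102.6 CPM in Mdr1- replicate 3 against 10.3 to 24.5 CPM in the other 5 libraries, with Cd14, S100a8 and S100a9 at 0 to 2 counts in those 5. The 7 B cell markers summed to 12.7 CPM in Mdr1+ replicate 3 and 1.22 to 3.57 CPM in the others, with Ms4a1 at 0 to 1 counts. Summed levels of the endothelial and stromal list (117 to 191 CPM in Mdr1+ and 125 to 136 in Mdr1-), mostly Pecam1, and of the epithelial list (2.82 to 10.8 and 3.24 to 7.98 CPM, Krt8 and Krt19 at 0 in all libraries) overlapped between the groups. Those of the plasma cell list, mostly Xbp1 and Prdm1, and of the dendritic cell list, with Ccr7 as its largest part, overlapped too. Such sums say little about the other genes of a list, of which Tnfrsf17 and Clec9a were at 0. Single genes of these lists were lower in Mdr1+ cells: Acta2 in both fits, and H2-Aa, Cd74 and the myeloid gene Lyz2 with the block only. In the dendritic cell list H2-Ab1 and Itgax were also lower, without overlap. H2-Ab1 was not called in either fit and Itgax was not tested. Ccr7 of the same list was higher in Mdr1+ within each replicate number and was not called. The part of these cells and of depth in the results below was not tested, except where a value without a library is given.

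As a family the enzymes were at a similar total level in both fractions, and which members were called in either direction depended on the fit. The 98 members summed to 3250 ± 148 CPM in the Mdr1+ libraries, against 3218 ± 175 CPM (SD, n = 3 each). In edgeR's test 1 of 58 rose in Mdr1+ cells, the sulfotransferase gene Ust, and 0 fell, against 0.275% and 1.95% of all tested genes that were called higher and lower. At an unadjusted p under 0.05 there were 7 higher and 4 lower members, where 4.63% and 7.22% of all tested genes were higher and lower (11.9% in either direction). DESeq2 called 2 of 83 members higher (Ust and St3gal6) and 1 lower (St6galnac6), against 0.626% and 2.32% of 16306 genes. These are all genes with a fold change in DESeq2, and a gene without an adjusted p counts as not called. The DESeq2 shares are therefore not on the same footing as those of edgeR. With the block 5 rose (Ust, St3gal6, Chst11, Mgat4a and St6galnac3) and 5 fell (B3galt2, St6galnac6, Chst2, St3gal1 and Galnt2), 8.62% of the tested members each way, against 5.81% and 6.57% of all tested genes. These shares lie near the background. With replicate 1, 2 or 3 left out, the fit with the block called 4, 2 and 8 members higher, while the share of all genes called higher was 3.93%, 2.42% and 10.1%. It called 2, 0 and 11 members lower, with 6.26%, 3.66% and 12.1% of all genes, so the members' counts moved with those of the whole table. Without replicate 2 the calls of 8 of the 10 members were lost, all but those of Chst11 and Mgat4a. Fewer cells that express a gene and less of its RNA per cell cannot be told apart in these bulk libraries.

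**Figure D1:**
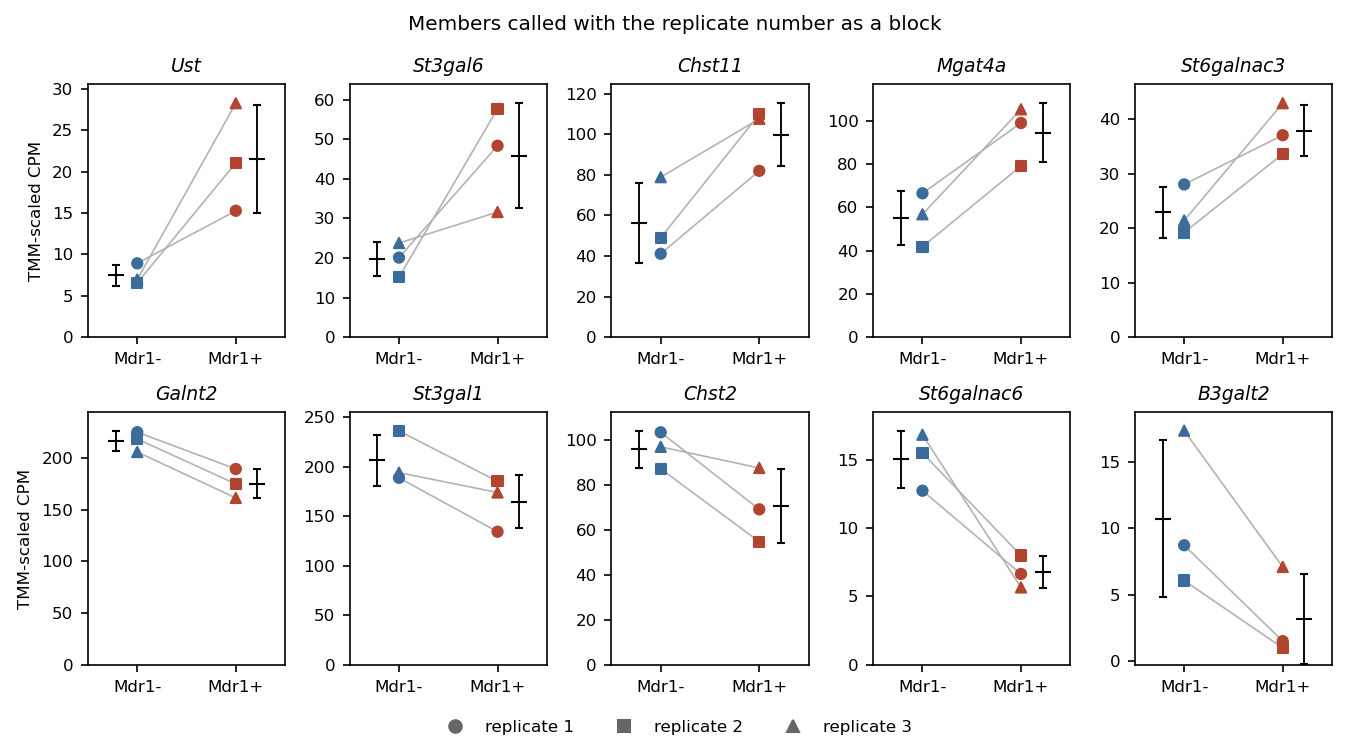
TMM-scaled CPM (y axis, linear, each panel on its own scale) in Mdr1- and Mdr1+ libraries for the 10 members called with the replicate number as a block. Symbols are libraries by replicate number, grey lines join libraries of the same number, and black bars give each group's mean ± SD. In all 10 panels the lines run in 1 direction; the groups do not overlap for 8 members and do for Chst2 and B3galt2, whose lower SD bar reaches under 0.

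Of the 58 tested members, 18 (31.0%) had groups that did not overlap at all, 9 higher and 9 lower in Mdr1+ cells. Over all tested genes the shares were 19.7% in either direction, 8.71% higher and 11% lower. The median log2 fold change of the tested members was -0.06 against 0.04 for all tested genes, and the median size of the change regardless of sign was 0.32 against 0.25. An exact two-sided permutation test of 3 against 3 libraries cannot go below p = 0.1, which is what each of these 18 genes gave.

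The promoters of 3 members that were higher in Mdr1+ cells with the block and that have a single start in the RefSeq table are shown, since they let the start regions of genes that rose be compared; they were chosen after the values were seen. They are the 250 bases before the start, 5′ to 3′ on the gene's strand, in build GRCm38.p6 (the counts were made on mm9), at chr10:8518826-8519075 (minus strand) for Ust, chr10:82985247-82985496 (plus) for Chst11 and chr3:153725134-153725383 (minus) for St6galnac3. Capitals mark matches, on either strand, to a GC box (GGGCGG), an E-box (CACGTG) or a T-box core (AGGTGT).
Ust: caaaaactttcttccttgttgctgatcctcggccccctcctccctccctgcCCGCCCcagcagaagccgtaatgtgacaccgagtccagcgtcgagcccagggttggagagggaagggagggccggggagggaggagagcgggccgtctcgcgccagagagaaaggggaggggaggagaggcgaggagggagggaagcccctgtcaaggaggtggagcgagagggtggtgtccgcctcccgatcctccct
Chst11: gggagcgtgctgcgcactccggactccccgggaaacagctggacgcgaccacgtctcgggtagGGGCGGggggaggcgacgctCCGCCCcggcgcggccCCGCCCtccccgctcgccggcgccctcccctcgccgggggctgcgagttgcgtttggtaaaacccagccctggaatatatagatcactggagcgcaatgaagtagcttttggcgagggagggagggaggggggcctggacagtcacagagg
St6galnac3: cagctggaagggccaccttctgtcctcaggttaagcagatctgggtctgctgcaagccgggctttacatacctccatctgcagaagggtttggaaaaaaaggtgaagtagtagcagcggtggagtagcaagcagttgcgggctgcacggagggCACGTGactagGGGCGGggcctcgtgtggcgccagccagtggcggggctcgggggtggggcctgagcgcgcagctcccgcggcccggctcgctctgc
The windows held 1, 3 and 1 GC boxes, which 32.7% of all 32851 windows of this length contain at least once. St6galnac3 held 1 E-box, a motif found in 6.02% of all windows, and 0 of the 3 windows held the T-box core, found in 11.8%. The number of CpG dinucleotides was 15, 26 and 16, against a median of 6 over all windows and 14 over the 66 windows of tested members. These matches describe the letters only, and which start is used in these cells is not given by counts per gene.

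The sulfotransferases held the largest rise among the called members, and the members of this group did not move together. Of 7 tested genes 1 (14.3%) rose without the block, against 0.275% of all tested genes. With the block 2 (28.6%) rose and 1 (14.3%) fell, against 5.81% and 6.57% of all tested genes. Ust encodes uronyl 2-O-sulfotransferase, which sulfates the uronic acid units of dermatan and chondroitin sulfate. It was at 15.3, 21.1 and 28.3 CPM in Mdr1+ replicates 1, 2 and 3 and at 8.93, 6.57 and 6.96 CPM in the Mdr1- replicates. Every Mdr1+ library was above every Mdr1- library, with ratios within replicate numbers of 1.71, 3.21 and 4.06, from 41 to 451 counts per library. Its log2 fold change was 1.50 ± 0.32 (adjusted p = 0.047), and 1.47 ± 0.29 with the block (adjusted p = 0.013). The call without the block was lost when any 1 of the 6 libraries was left out, with log2 fold changes of 1.28 to 1.66 and adjusted p = 0.058 to 0.23. The call with the block was lost without replicate 2 (1.37, adjusted p = 0.056) and kept without replicate 1 or 3.

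Chst11 encodes a chondroitin 4-O-sulfotransferase, which sulfates GalNAc units of the chain. It was at 81.9, 109.8 and 107.5 CPM in Mdr1+ and at 41.1, 48.9 and 78.8 CPM in Mdr1- replicates. The lowest Mdr1+ library stood just above the highest Mdr1- library, and the ratios within numbers were 1.99, 2.24 and 1.36. The log2 fold change of 0.83 ± 0.26 missed the threshold without the block (adjusted p = 0.205) and passed with it (0.89 ± 0.15, adjusted p = 0.0064). Chst12, a second gene for the same reaction, was at 16.8 ± 5.27 and 17.9 ± 5.42 CPM (SD, n = 3 each) and was not called. Chst14, the 4-O-sulfotransferase of dermatan sulfate, and Chst15, which adds a further sulfate to 4-sulfated GalNAc, had log2 fold changes of -0.38 ± 0.69 and -0.46 ± 0.45 and were not called either. Both were lowest in Mdr1+ replicate 3, with Chst14 at 0 counts there.

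Chst2 encodes an N-acetylglucosamine (GlcNAc) 6-O-sulfotransferase, one of the enzymes that can make sulfated selectin ligands. It was at 69.3, 54.9 and 87.7 CPM in Mdr1+ and at 103.6, 87.3 and 97.1 CPM in Mdr1- replicates. The groups overlapped by a narrow margin, while the Mdr1+ library was lower within each number (ratios 0.669, 0.628 and 0.903). Chst2 fell only with the block (-0.48 ± 0.13, adjusted p = 0.043, against adjusted p = 0.42 without it). Chst10, the sulfotransferase of the HNK-1 epitope, was at 18.2 ± 7.33 against 22.7 ± 3.98 CPM (SD, n = 3 each) and was not called.

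Sialyltransferases were the largest group, with 15 tested genes. None was called by edgeR without the block, and 5 had an unadjusted p under 0.05, where 11.9% of all tested genes had. With the block 2 rose and 2 fell (13.3% each), against 5.81% and 6.57% of all tested genes. St3gal6 encodes an α2,3-sialyltransferase that acts on N-acetyllactosamine arms and contributes to selectin ligands. It was at 48.4, 57.7 and 31.6 CPM in Mdr1+ and at 20.1, 15.1 and 23.8 CPM in Mdr1- replicates. The groups did not overlap, and they were closest in replicate 3 (ratios 2.41, 3.81 and 1.33). The log2 fold change was 1.25 ± 0.28 (adjusted p = 0.056) without the block and 1.27 ± 0.26 (adjusted p = 0.014) with it. Without Mdr1+ replicate 3 it passed also in the fit without the block (1.44, adjusted p = 0.032). St3gal6 shares exon sequence with Dcbld2 on the opposite strand in GENCODE M21, and Dcbld2 was lower in each pair (16.7 ± 4.33 against 20.7 ± 6.84 CPM, SD, n = 3 each) and was not called.

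St6galnac3 encodes an enzyme that adds α2,6-linked sialic acid to the GalNAc of sialylated O-glycans and to gangliosides, the sialic acid-bearing glycolipids. It was at 37.1, 33.6 and 42.9 CPM in Mdr1+ and at 28.0, 19.2 and 21.4 CPM in Mdr1- replicates. No Mdr1- library reached the lowest Mdr1+ library. The log2 fold change of 0.72 ± 0.23 passed only with the block (adjusted p = 0.030, against 0.215 without it). St6galnac6, a related enzyme that acts on gangliosides, went the other way, at 6.65, 7.99 and 5.66 CPM in Mdr1+ and at 12.7, 15.5 and 16.8 CPM in Mdr1- replicates. Its Mdr1+ libraries were all below its Mdr1- libraries, with a log2 fold change of -1.11 ± 0.30. In edgeR it was called with the block only (adjusted p = 0.032, against 0.125 without it). DESeq2, fitted without the block, called it too. The other tested members of this subfamily were not called, among them St6galnac1 and St6galnac2, which were highest of all Mdr1+ libraries in replicate 3 (59.4 and 26.4 CPM, where replicates 1 and 2 reached no more than 21.8 and 11.6 CPM).

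St3gal1 encodes the enzyme that caps core 1 O-glycans with α2,3-linked sialic acid, and was among the more abundant members. It was at 134, 185 and 174 CPM in Mdr1+ and at 189, 236 and 194 CPM in Mdr1- replicates, which stood next to each other without overlap. Its log2 fold change of -0.33 ± 0.19 passed only with the block and close to the threshold (adjusted p = 0.0499, against 0.56 without it). St3gal4, another α2,3-sialyltransferase of N-acetyllactosamine, was higher in each Mdr1+ library (40.9, 51.7 and 45.7 against 31.0, 36.6 and 34.5 CPM) and missed the threshold in both fits (adjusted p = 0.39, and 0.074 with the block). St3gal5, which makes GM3, the parent of most gangliosides, was at 1.16, 1.17 and 2.36 CPM in Mdr1+ and at 2.90, 3.89 and 4.58 CPM in Mdr1- replicates. It had no overlap and a log2 fold change of -1.42 ± 0.54, and was not called (adjusted p = 0.32, and 0.125 with the block).

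St8sia4 encodes a polysialyltransferase and had the most counts of the sialyltransferase genes. Its level followed the replicate number, at 354, 135 and 258 CPM in Mdr1+ and 315, 111 and 192 CPM in Mdr1- replicates 1, 2 and 3. Within numbers the Mdr1+ library was 1.13, 1.22 and 1.34 times as high, and the difference was not called (log2 fold change 0.27 ± 0.41, and 0.29 ± 0.09 with adjusted p = 0.065 with the block). For 38 of the 58 tested members the range over the 3 replicate numbers exceeded the difference between the groups. Both were taken on log2(CPM + 0.5). A range over 3 numbers and a difference between groups are unlike measures, and the share over all tested genes was not computed. The count therefore does not show that the members follow the replicate number. St8sia1, the synthase of the ganglioside GD3, and St6gal1, which adds α2,6-linked sialic acid that CD22 can bind, had log2 fold changes of -0.12 ± 0.20 and 0.07 ± 0.17 and were not called.

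**Figure D2:**
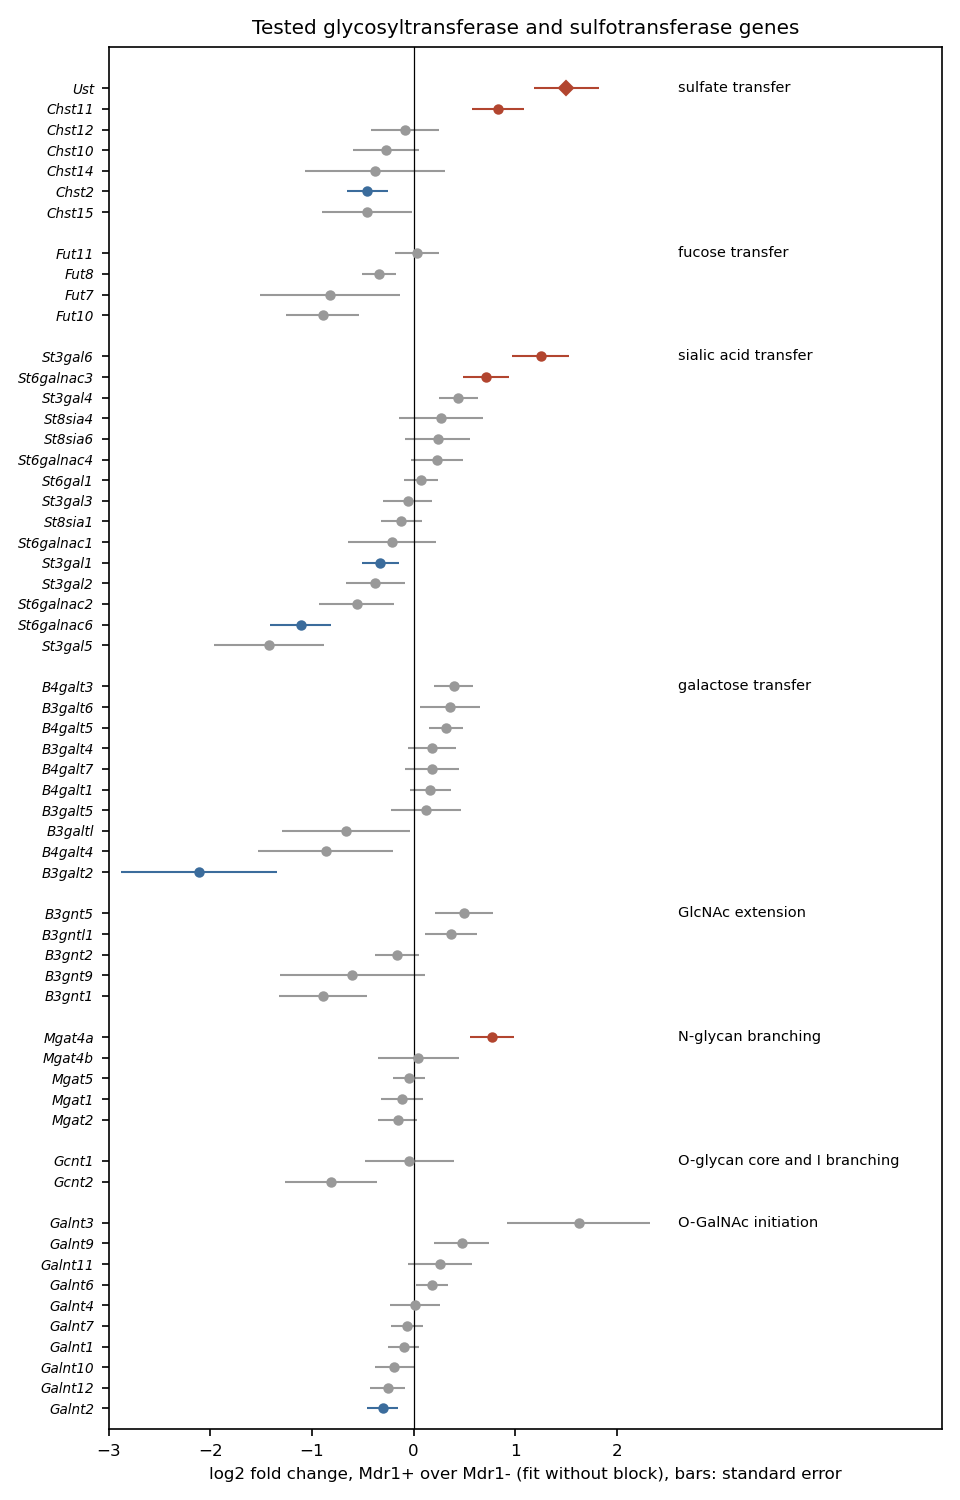
Log2 fold change of Mdr1+ over Mdr1- (x axis, fit without the block) of the 58 tested members. Bars are the standard error, and members are grouped by a role assigned from their names. Red and blue mark members higher and lower with the block at adjusted p under 0.05, grey the others, and the diamond marks Ust, the 1 member called without it. Each group but the O-glycan branching enzymes has members on both sides of 0, and fold changes run from -2.11 (B3galt2) to 1.62 (Galnt3).

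The 10 tested genes named B3galt or B4galt were grouped by name, which does not settle the sugar that each one transfers. Of these 0 was called by edgeR without the block, and 1 had an unadjusted p under 0.05, where 11.9% of all tested genes had. With the block 1 (10%) fell, against 6.57% of all tested genes. That gene was B3galt2, a β1,3-galactosyltransferase, at 1.50, 0.981 and 7.07 CPM in Mdr1+ and at 8.71, 6.05 and 17.3 CPM in Mdr1- replicates. Replicate 3 was highest in both groups, so the groups overlapped, while the ratios within numbers were 0.172, 0.162 and 0.408. The log2 fold change of -2.11 ± 0.76 became -2.14 ± 0.42 with the block (adjusted p = 0.30 and 0.012), from 9 to 102 counts per library. Without Mdr1+ replicate 3 it was -3.16, and passed without the block too (adjusted p = 0.048).

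B4galt1, the main β1,4-galactosyltransferase, adds galactose to GlcNAc to form N-acetyllactosamine, and had the most counts of the galactosyltransferase genes. It was at 331, 233 and 320.2 CPM in Mdr1+ and at 309, 225 and 256 CPM in Mdr1- replicates, a log2 fold change of 0.16 ± 0.20 that was not called. B4galt3, a related enzyme, and B4galt5, which makes lactosylceramide for glycolipids, were higher in every Mdr1+ than in every Mdr1- library (36.8 ± 2.41 against 27.9 ± 1.80 CPM and 68.9 ± 3.93 against 55.2 ± 4.58 CPM, SD, n = 3 each). Neither passed in either fit (log2 fold changes 0.39 ± 0.19 and 0.32 ± 0.17, adjusted p = 0.15 and 0.12 with the block). B4galt4 was lower without overlap (2.55 ± 2.21 against 5.34 ± 0.80 CPM, SD, n = 3 each), with 0 counts in Mdr1+ replicate 3, and was not called. B4galt7 and B3galt6, which build the linker that joins chondroitin and heparan sulfate to their core proteins, had log2 fold changes of 0.18 ± 0.26 and 0.36 ± 0.29 and were not called.

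Among 5 tested N-glycan branching genes 1 (20%) rose with the block, against 5.81% of all tested genes, and 0 was called without it. Mgat4a encodes GlcNAc transferase IVa, which starts the β1,4 branch. It was at 98.9, 79.0 and 105.2 CPM in Mdr1+ and at 66.4, 41.8 and 56.7 CPM in Mdr1- replicates. Every Mdr1+ library lay above all Mdr1- libraries, with ratios within numbers of 1.49, 1.89 and 1.85. The log2 fold change was 0.78 ± 0.22 (adjusted p = 0.14) and 0.79 ± 0.12 with the block (adjusted p = 0.0044). It passed also in each fit with the block that left out 1 replicate number, as did Chst11, with 0.72 to 0.84 and 0.73 to 1.06. Mgat5, which starts the β1,6 branch that binds galectins in T cells, was at 65.2 ± 2.06 and 67.5 ± 3.61 CPM (SD, n = 3 each). Its log2 fold change was -0.05 ± 0.16, and Mgat1 (-0.11 ± 0.20), Mgat2 (-0.16 ± 0.19) and Mgat4b (0.05 ± 0.40) were not called either. Mgat1 and Mgat2 act before the branch enzymes.

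The Galnt enzymes, which start O-glycans, were close in summed level (824 ± 0.99 CPM in Mdr1+ against 856 ± 8.57 in Mdr1-, SD, n = 3 each). The sums did not overlap, at 823, 825 and 824 CPM in Mdr1+ and 846, 862 and 860 CPM in Mdr1- replicates. Of 10 tested genes 0 was called by edgeR without the block and 1 (10%), Galnt2, fell with it, against 6.57% of all tested genes. Galnt2 was at 189, 175 and 161 CPM in Mdr1+ and at 225, 218 and 206 CPM in Mdr1- replicates. These groups did not overlap, and the log2 fold change was -0.30 ± 0.15 (adjusted p = 0.495, and 0.046 with the block). Galnt6 had the most counts of the group, at 246 ± 21.7 and 217 ± 13.5 CPM (SD, n = 3 each), with a log2 fold change of 0.18 ± 0.16 that was not called. Galnt12 had no overlap either (45.0 ± 1.47 against 53.6 ± 5.77 CPM, SD, n = 3 each) and was not called. Galnt3 was near the limit of detection, at 1.50, 1.45 and 4.24 CPM in Mdr1+ and 0.781, 0.692 and 0.509 CPM in Mdr1- replicates. Its log2 fold change of 1.62 ± 0.70 rests on 3 to 31 counts per library, was the largest positive one of the tested members and was not called (adjusted p = 0.40, and 0.21 with the block).

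Fucosyltransferase genes and the Gcnt genes, which branch O-glycans and chains of N-acetyllactosamine, gave no call in either edgeR fit with all libraries. Of 4 tested fucosyltransferase genes 1 was lower at an unadjusted p under 0.05 and 3 were lower in Mdr1+ cells without overlap, where 7.22% and 11% of all tested genes were. Of 2 tested Gcnt genes 0 had an unadjusted p under 0.05 and 0 lacked overlap. Fut8, which adds the core fucose of N-glycans, was at 70.0 ± 9.13 against 89.0 ± 5.98 CPM (SD, n = 3 each). Its change on the log2 scale was -0.34 ± 0.17 (adjusted p = 0.485, or 0.087 when blocked). Fut7, which completes the sialyl Lewis x ligand of selectins, was at 2.66, 2.20 and 0 CPM in Mdr1+ and at 2.90, 2.94 and 4.25 CPM in Mdr1- replicates and was not called. Fut10 was at 14.5, 14.2 and 8.96 CPM in Mdr1+ and at 16.2, 19.4 and 36.5 CPM in Mdr1- replicates, so most of its difference lay in replicate 3 (ratios 0.893, 0.731 and 0.245; log2 fold change -0.89 ± 0.36, adjusted p = 0.36). Gcnt1, the core 2 branching enzyme needed for P-selectin ligands on T cells, was at 13.8 ± 7.26 and 14.8 ± 5.39 CPM (SD, n = 3 each). Gcnt2, the I-branching enzyme, was at 55.5 CPM in Mdr1- replicate 3 and at 12.6 to 23.1 CPM in the other 5 libraries, and was not called (-0.81 ± 0.45, adjusted p = 0.55). Mdr1- replicate 3, highest for Fut10 and Gcnt2, is the library with the most myeloid marker counts; the part of those cells was not tested.

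The 5 tested genes named B3gnt gave no call in either edgeR fit with all libraries, and 0 had an unadjusted p under 0.05. B3gnt2, which lengthens polylactosamine chains, was at 152 ± 24.4 against 170.1 ± 41.2 CPM (SD, n = 3 each). B3gnt5, which starts lacto-series glycolipids, had a log2 fold change of 0.50 ± 0.28 and was higher in each pair without being called (adjusted p = 0.56, and 0.083 with the block). The gene listed as B3gnt1 had the largest change of these 5 (-0.89 ± 0.43, adjusted p = 0.47, and 0.074 with the block). Its symbol has since been used for 2 genes, B3gnt2 and B4gat1. Since B3gnt2 is listed separately here, B4gat1 remains, and its place among these genes is by name only.

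Levels were compared between genes per kilobase of merged exons, with lengths from GENCODE M21 for the 57 tested members whose symbol matched 1 gene. The 6 highest on this scale, as means of all 6 libraries, were B4galt1 (65.9 CPM per kilobase), Galnt6 (59.9), Mgat2 (48.8), B3gnt2 (48.4), Galnt2 (47.6) and Galnt1 (41.2). Neighbours in this order overlapped between libraries, for instance Mgat2, B3gnt2 and Galnt2. They span the steps of O-glycan start, N-glycan branching, galactosylation and chain extension. The sialyltransferase gene highest on this scale was St3gal1 (32.0), the fucosyltransferase gene Fut8 (22.6) and the sulfotransferase gene Chst11 (14.1). Ust, at 3.43 CPM per kilobase, was 44th of the 57, and the median was 7.42.

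**Figure D3:**
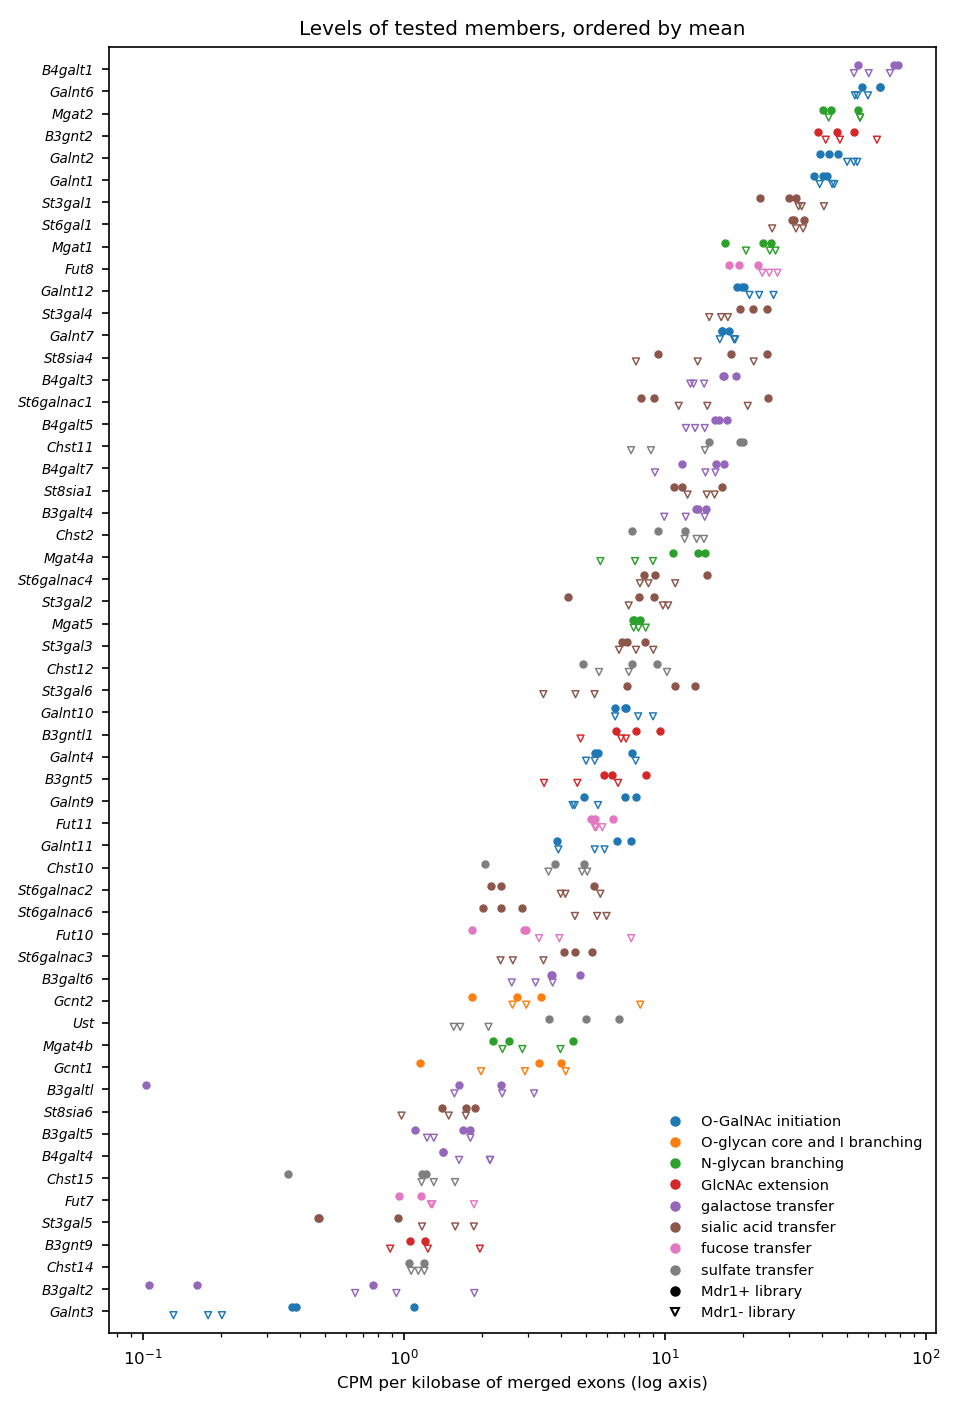
CPM per kilobase of merged exons (x axis, log scale) of 57 tested members (y axis), ordered by their mean over 6 libraries; filled circles are Mdr1+ and open triangles Mdr1- libraries, coloured by role. Libraries at 0, which occur for 4 members in Mdr1+ replicate 3, are not drawn. Levels run from B4galt1, at a mean of 65.9, to Galnt3, at 0.393.

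The 40 members that were not tested were at or near the limit of detection. Of these, 15 had 0 counts in all 6 libraries, among them Chst4, another sulfotransferase of selectin ligands, Fut1 and Fut2, which make H antigens, and St8sia2, the second polysialyltransferase. Another 25 had at least 1 count, and 36 of the 40 had fewer than 10 counts over all libraries. The exceptions were B3gnt3 with 70 counts in all, B4galt2 and Galnt14 with 13 each and Mgat5b with 10. A count of 0 allows up to 3 counts, which is 0.144 to 1.35 CPM by library and covers counting error only. Chst3, which makes chondroitin 6-sulfate, had 1 count in all libraries together and Fut4, a fucosyltransferase of Lewis x, had 7.

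The chondroitin, dermatan and heparan sulfate genes outside the name rule were read beside Ust and Chst11. Of 33 such genes with counts listed, 21 were tested and 0 was called by edgeR without the block. At an unadjusted p under 0.05 there were 3, where 11.9% of all tested genes were. With the block 3 (14.3%) rose and 0 fell, against 5.81% and 6.57% of all tested genes. Without overlap 4 (19.0%) were higher and 0 lower, against 8.71% and 11% of all tested genes. The list's median log2 fold change was 0.04, the same as that of all tested genes. Dse encodes the epimerase that turns glucuronic into iduronic acid and so makes dermatan sulfate. It was at 29.7, 44.9 and 14.1 CPM in Mdr1+ and at 12.5, 13.4 and 6.45 CPM in Mdr1- replicates, with ratios of 2.38, 3.35 and 2.19. Its log2 fold change was 1.48 ± 0.43 (adjusted p = 0.16) and 1.42 ± 0.21 with the block (adjusted p = 0.0035).

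Chsy1, a chondroitin chain polymerase gene, was at 202, 198 and 179 CPM in Mdr1+ and at 122, 114 and 121 CPM in Mdr1- replicates. This narrow spread came with a log2 fold change of 0.70 ± 0.15; its adjusted p was 0.0502, and 0.0019 when blocked by replicate number. Hs3st3b1, a heparan sulfate 3-O-sulfotransferase gene, also rose with the block (60.5, 62.8 and 56.6 CPM in Mdr1+ and 38.8, 25.3 and 41.8 CPM in Mdr1- replicates; adjusted p = 0.021, against 0.16 without it). Xylt1, whose enzyme adds the first xylose to the core protein, had no overlap and missed the threshold in both fits (33.9, 37.3 and 56.1 CPM in Mdr1+ and 25.7, 27.8 and 32.8 CPM in Mdr1- replicates; adjusted p = 0.42, and 0.060 with the block). Other genes of the same chains were not called, such as Dsel, the second epimerase gene (-0.05), Chpf (-0.34), Csgalnact2 (0.28), Ext1 (-0.19) and Ndst1 (0.01).

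**Figure D4:**
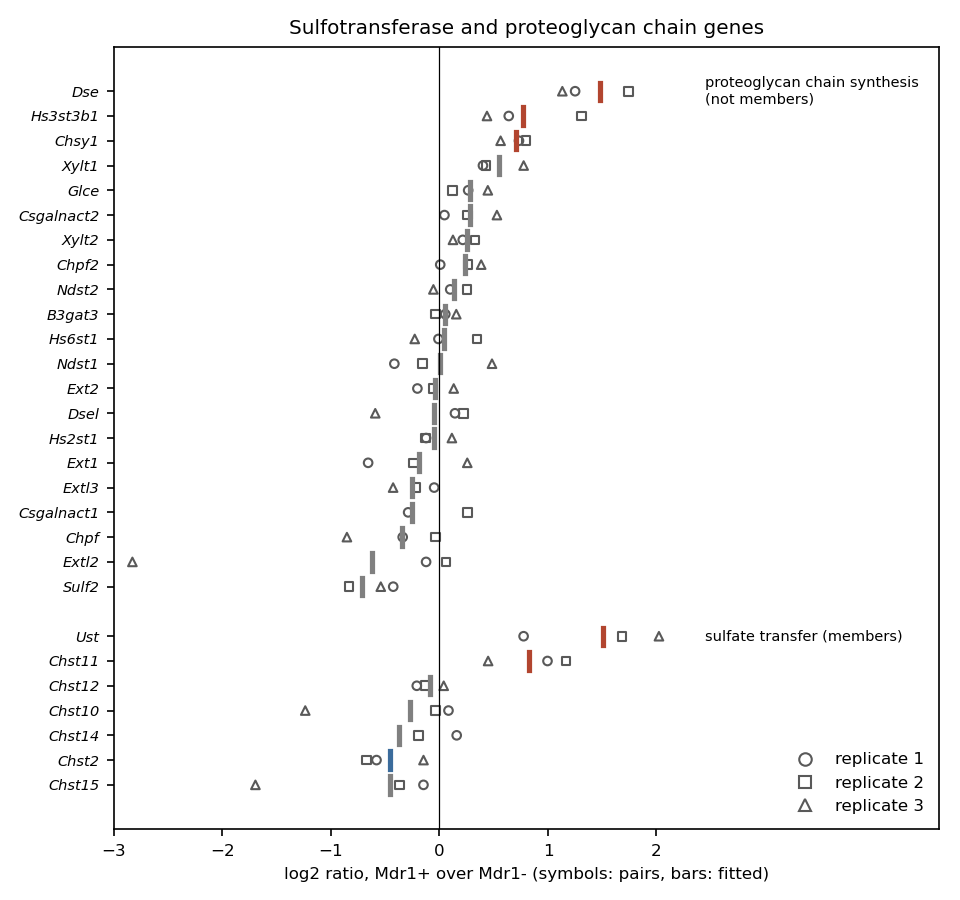
Log2 of the Mdr1+ to Mdr1- ratio (x axis) for the 7 tested sulfotransferase members and the 21 tested proteoglycan chain genes outside the name rule (y axis); open symbols are the 3 same-number pairs, missing where a library had 0 counts, and bars are the fitted values. Red and blue bars mark genes higher and lower with the block. Ust, Chst11, Dse, Chsy1 and Hs3st3b1 lie right of 0 in all 3 pairs, and Chst2 lies left of 0 in all 3. Genes that were not called do so too: Xylt1, Xylt2, Chpf2, Csgalnact2 and Glce to the right, and Chst15, Chpf, Extl3 and Sulf2 to the left.

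Genes that supply or use the same building blocks were read next. Of 31 tested genes of nucleotide sugar and sulfate donor supply 0 was called by edgeR without the block (2 at an unadjusted p under 0.05), and 1 (3.23%), Nans, fell with it, where 6.57% of all tested genes fell. Nans encodes the synthase of sialic acid, and was at 56.2 ± 9.51 against 90.9 ± 10.6 CPM (SD, n = 3 each). Its change on the log2 scale was -0.68 ± 0.19, called with the block (adjusted p = 0.0090) and not without it (adjusted p = 0.14). Of 21 other initiating or extending transferases 2 (9.52%) rose with the block, where 5.81% of all tested genes rose, and 0 was called by edgeR without it (1 at an unadjusted p under 0.05). Lfng, a fringe enzyme that extends O-fucose on Notch, was at 325, 400.5 and 357 CPM in Mdr1+ and at 220.3, 267 and 214 CPM in Mdr1- replicates, without overlap (adjusted p = 0.14, and 0.0020 with the block). B4galnt1, which turns GM3 and GD3 into GM2 and GD2, rose by 0.39 ± 0.09 on the log2 scale with the block (adjusted p = 0.023). C1galt1 and its chaperone gene C1galt1c1, which make core 1, had log2 fold changes of -0.06 and 0.22 and were not called.

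Among 13 tested genes for proteins that carry or bind these glycans 1 (7.69%) fell without the block, against 1.95% of all tested genes. With the block 2 (15.4%) rose and 3 (23.1%) fell, against 5.81% and 6.57% of all tested genes. The gene that fell without the block was Lgals1, which encodes galectin-1, a lectin of N-acetyllactosamine. In the main edgeR fit without the block, it was the only one called of the 102 tested genes of the 5 pathway lists. It was at 213, 167 and 193 CPM in Mdr1+ and at 489, 759 and 467 CPM in Mdr1- replicates, far apart without overlap. Its log2 fold change was -1.58 ± 0.23 (adjusted p = 0.0090). The call was lost without Mdr1+ replicate 3 (-1.61, adjusted p = 0.059) and without both libraries of number 3 (-1.75, adjusted p = 0.19). It was also lost in the fit with the block that left out number 3. With the deposited order set aside, Lgals1 was called in 16 of 19 settings. Lgals3, which encodes galectin-3, was at 74.6 ± 20.9 against 149.8 ± 23.6 CPM (SD, n = 3 each). On the log2 scale it differed by -1.02 ± 0.23, called by edgeR with the block (adjusted p = 0.0069) and not in the main fit without it (adjusted p = 0.059). DESeq2 and edgeR with no filter on low counts, both without the block, called Lgals3 too. It was called in 6 of the 19 settings. Over the 5 lists 7 of 102 tested genes rose (6.86%) and 6 fell (5.88%) with the block, near the 5.81% and 6.57% of all tested genes.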

How the data were processed

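RNA from 6 libraries, 3 per sorted fraction, was measured as raw counts of reads per gene, which the authors deposited as a single table. The submitters' processing notes list TopHat, HTSeq, DESeq2 and mm9; for versions, annotation and strand setting the sources used here give nothing. The kit was stranded and for total RNA, per the labels' protocols. Groups and replicate numbers are from the sample titles. Rows of unassigned reads were left out; in replicates 1 and 2 reads without a unique position were 67.0% to 73.2% of entries and reads in no feature 13.2% to 19.7%.

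The replicate 3 columns stand in case-insensitive name order while the names are in case-sensitive order, so they were re-ordered. This moved 84 of the 98 members, and Spearman correlations over the members with summed replicates 1 and 2 went from 0.150 to 0.947 (Mdr1+) and from 0.188 to 0.967 (Mdr1-). Replicates of a group differed beyond sampling noise (chi-square per degree of freedom 14.5 to 53.7).

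Tests used edgeR 4.0.16 in R 4.3.3: TMM, filterByExpr by group, and robust quasi-likelihood tests of a model holding only the group. Standard errors are the log2 fold change over the root of F. Scripts were tested on simulated data. Deviations of log2 CPM (prior count 2) from the group means correlated at 0.41, 0.57 and 0.21 between libraries of the same number, each above the set limit of 0.1 and each library's best match. The libraries were therefore treated as pairs by number, which the labels do not state. Alternatives were the block, RLE scaling, 2 other count filters, DESeq2 1.42.0, no robust shrinkage, the deposited order, and left-out libraries or numbers.

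Named genes were the members called in either fit, those with the most counts or the largest change in each role, those without overlap, and the pathway genes called without the block or, at most 5, with it; others are background to them and were chosen after their values were seen. The members and lists were chosen with earlier results of these data known. Of the 98 members 97 matched 1 RefSeq symbol (GRCm38.p6) and 74 had a promoter window. In GENCODE M21, 18 of the 58 tested members share exon sequence with another gene, most on the opposite strand, and without the strand setting their reads cannot be told apart.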

Additional observations from a re-analysis of the deposited data

How the results depend on the processing

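Adding a replicate block (pairing by number) moved the members called higher from 1 to 5 and lower from 0 to 5, and the pathway genes outside the name rule from 0 to 7 higher and from 1 to 6 lower. With 1 number left out of that fit, an alternative chosen after seeing the data, the 4 counts ran from 2 to 8, 0 to 11, 2 to 12 and 4 to 14. Without the block and without 1 library or 1 replicate number, they ran from 0 to 1, 0 to 1, 0 to 0 and 0 to 1. The member called lower without Mdr1+ replicate 3 was B3galt2. With no filter on low counts 2 members were higher and 2 pathway genes lower. DESeq2 called 2 members higher and 1 lower, and 3 pathway genes higher (Chsy1, Dse and Lfng) and 2 lower (Lgals1 and Lgals3). A minimum of 10 counts in every library of a group gave 1 pathway gene higher, Chsy1. With replicate 3 in the deposited order 0 members and 0 pathway genes were called in either direction, and the log2 fold changes of Mgat4a (-0.0078), Galnt3 (-0.61) and B4galt4 (0.092) changed sign, since counts then stand on other genes' rows. RLE scaling and no robust shrinkage left these counts as they were. Log2 fold changes near 0 changed sign without 1 library: B3gnt2 ran from -0.33 to 0.013 (without Mdr1- replicate 1), and St8sia4 from -0.11 (without Mdr1+ replicate 1) to 0.69, with -0.029 without Mdr1- replicate 2. The cause of these changes with left-out libraries was not tested. At the depth of Mdr1+ replicate 3, genes under 1.35 CPM lie below the floor of 3 counts.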

Other observations

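Among genes of lysosomal and other enzymes that remove sugars and sulfate from these chains, 0 of 16 tested genes was called by edgeR without the block. At an unadjusted p under 0.05 there were 3, where 11.9% of all tested genes were. With the block 2 (12.5%) fell, against 6.57% of all tested genes. Glb1, the lysosomal β-galactosidase gene, was at 35.2, 38.7 and 25.5 CPM in Mdr1+ and at 58.2, 56.8 and 49.8 CPM in Mdr1- replicates, without overlap (log2 fold change -0.71 ± 0.21, adjusted p = 0.16 in edgeR, and 0.013 with the block). Arsb, which encodes the arylsulfatase that removes 4-sulfate from chondroitin and dermatan sulfate, was at 21.9, 33.2 and 34.4 CPM in Mdr1+ and at 38.7, 48.0 and 45.8 CPM in Mdr1- replicates, without overlap (adjusted p = 0.36 in edgeR, and 0.037 with the block).

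Other glycan-binding proteins passed only with the block. Lgals8, the galectin-8 gene, was at 68.5, 68.3 and 72.6 CPM in Mdr1+ and at 52.8, 43.1 and 56.0 CPM in Mdr1- replicates (adjusted p = 0.041 in edgeR with the block). Cd22, which encodes a lectin of α2,6-linked sialic acid known from B cells, was at 8.47, 21.6 and 8.96 CPM in Mdr1+ and at 4.24, 8.21 and 5.09 CPM in Mdr1- replicates (adjusted p = 0.037 with the block). The 7 B cell markers summed to 1.22 to 12.7 CPM in Mdr1+ and 2.46 to 3.57 CPM in Mdr1- libraries, and their part in this result was not tested.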
